A study of Mus musculus with 28 samples.

Results

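Single mouse bone marrow cells transformed by MOZ-TIF2 were read after 1 day in benzarone and set against cells kept for 1 day in the solvent DMSO. The members were the cells whose sample entry in the deposited cell table named day 1 of benzarone or day 1 of DMSO, which gave 826 and 883 cells, 1709 of the 5696 single cells of the series. The cells came from C57Bl/6 mice. c-Kit+ bone marrow cells, enriched for stem and progenitor cells, had been given a retrovirus coding for Ty1-tagged MOZ-TIF2, sorted on GFP and replated repeatedly in methylcellulose, per the labels' protocols, so both conditions carried the oncogene and differed by 5 µM benzarone. Single-cell libraries were made with droplet 3′ chemistry and hashing antibodies, and each condition was 1 sample with 1 library of its own. No test across samples was therefore possible, and capture and treatment cannot be told apart.

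MOZ-TIF2 joins the histone acetyltransferase MOZ (Kat6a) to the nuclear receptor coactivator TIF2 (Ncoa2) and is found in acute myeloid leukaemia. In mouse marrow it keeps progenitors of the granulocyte and monocyte line growing in culture, together with high Hoxa9, Hoxa10 and Meis1. Benzarone inhibits the EYA proteins, phosphatases and transcription cofactors that work with homeobox proteins in the retinal determination network. Granulocyte progenitors carry RNA of primary granule proteases such as Mpo, Elane, Prtn3 and Ctsg, later neutrophils carry S100a8, S100a9, Ngp and Chil3, and monocytes and macrophages carry lysosomal enzymes, lipid handling genes and chemokines.

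The cells held 37425176 and 38536313 unique molecular identifiers (UMIs, 1 per captured RNA molecule) in benzarone and DMSO, over the 9448 genes that the deposited table lists. The median cell had 44761.5 UMIs and 5246 genes in benzarone, and 42565 UMIs and 5180 genes in DMSO. The highest share of mitochondrial UMIs in a cell was 3.75% in each condition. The libraries shared 2 cell barcodes. Marker levels are summed over a set and given as CPM, UMIs per 1000000 UMIs of the condition. Every cell had at least 1 UMI of some granulocyte progenitor marker (6 of 6 listed, 11194 CPM in benzarone and 10139 CPM in DMSO). Nearly every cell had at least 1 UMI of some late neutrophil marker (7 of 8 listed, 6527 and 7079 CPM). Single members could be rarer. Cebpe was detected in 38.7% of benzarone and 34.7% of DMSO cells, and Ngp in 7.51% and 3.28%. Monocyte and macrophage markers were low in sum (7 of 9 listed, 79.5 and 72.1 CPM). At least 1 UMI of some such marker was in 75.1% of benzarone and 73.3% of DMSO cells. Dendritic markers were 25.4 and 24.4 CPM (2 of 5 listed), and for mast cells and basophils Mcpt8 alone was listed (16.3 and 16.9 CPM). The megakaryocyte marker Pf4, the 1 of 4 listed, was 18.3 and 9.89 CPM. None of the 3 eosinophil, 5 erythroid, 3 B cell and 3 T and NK cell markers was in the table.

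After 1 day the libraries were nearly alike over most genes, and the genes that stood out were chemokines, lipid droplet and fatty acid genes, lysosomal genes and 2 neutrophil granule genes, all higher in benzarone. Of 4699 genes at 20 CPM or more in the higher condition, 29 were at least 1.5-fold higher in benzarone (0.617%) and 11 at least 1.5-fold lower (0.234%), 0.851% in all. The log2 ratio of benzarone over DMSO was 0.03 for the median gene and lay between -0.22 and 0.25 for the middle 90% of genes. Just inside 1.5-fold was Cd300a (log2 ratio 0.59), and just outside were Gsn (0.56) and Pdcd4 (0.54). On the lower side AC160336.1 (a ratio of 0.665) and Id2 (0.658) were just inside, and F630028O10Rik (0.686) and Ankrd37 (0.696) just outside. Intervals given with ratios are exact Poisson intervals at 95% on the summed UMIs and cover counting error only, not the spread between cells or cultures. They are too narrow where a few cells hold most of a gene's UMIs.

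**Figure D1:**
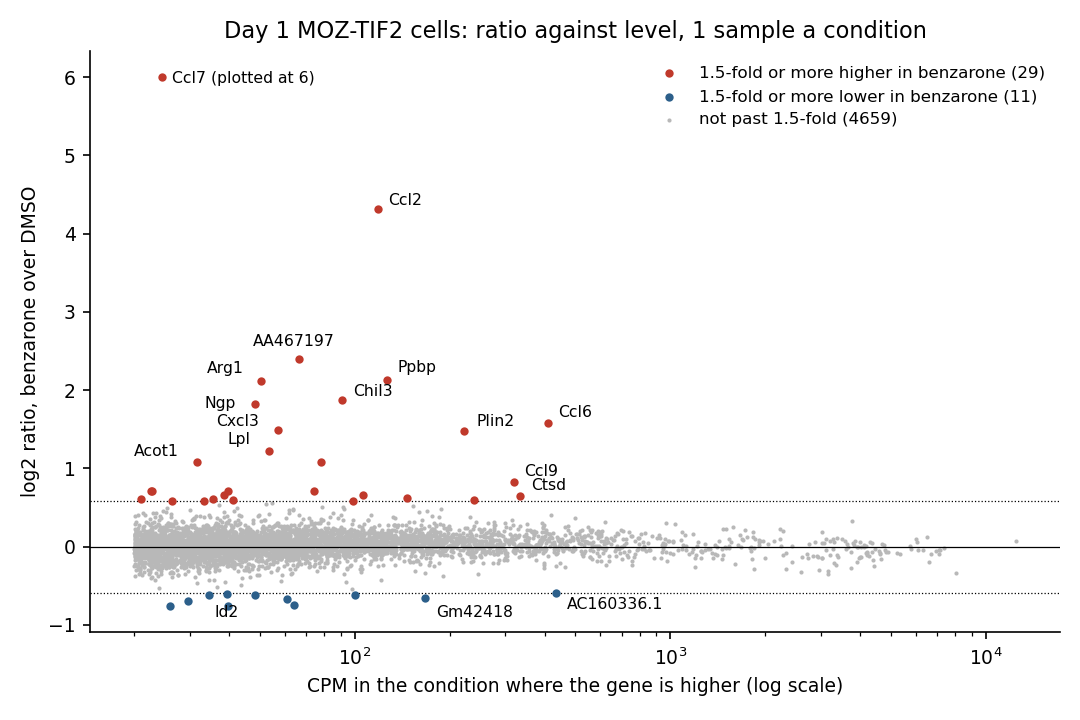
Each point is 1 of 4699 genes, with its CPM in the condition where it is higher on the x axis (log scale) and the log2 ratio of benzarone over DMSO on the y axis, 1 sample a condition. The 29 genes at least 1.5-fold higher in benzarone are red and the 11 at least 1.5-fold lower are blue (dotted lines at 1.5-fold). Ccl7, drawn at 6, has a log2 ratio of 9.88 that rests on 1 DMSO UMI.

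Acot1, Ctsd, Ccl6, Cxcl3 and Ppbp are shown with the 250 bases before their start, as examples among the higher genes with a motif match there. Their windows held a match to at least 1 of 6 motifs looked for, each on both strands: AP-1 (TGANTCA), NF-kB (GGGA, any base, then TTNCC), C/EBP (TTGCNNAA), the DR1 repeat bound by PPAR and RXR (AGGNCA repeated after any 1 base), the E-box of TFEB and MITF (CACGTG) and TATAAA. Capitals mark the matches to 1 motif a window: C/EBP in Acot1, the E-box in Ctsd, DR1 in Ccl6, NF-kB in Cxcl3 and AP-1 in Ppbp. Matches to other motifs are not marked, such as the E-box and TATAAA in Cxcl3 and TATAAA in Ppbp. The sequences are from RefSeq on GRCm38.p6, written 5′ to 3′ on the gene's strand.
Acot1 chr12:84009252-84009501 (plus strand): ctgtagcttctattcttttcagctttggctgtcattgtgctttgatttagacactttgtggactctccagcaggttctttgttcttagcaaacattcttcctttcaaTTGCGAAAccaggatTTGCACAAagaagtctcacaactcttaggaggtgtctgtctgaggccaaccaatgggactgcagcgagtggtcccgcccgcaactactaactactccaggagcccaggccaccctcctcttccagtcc
Ctsd chr7:142387828-142388077 (minus strand): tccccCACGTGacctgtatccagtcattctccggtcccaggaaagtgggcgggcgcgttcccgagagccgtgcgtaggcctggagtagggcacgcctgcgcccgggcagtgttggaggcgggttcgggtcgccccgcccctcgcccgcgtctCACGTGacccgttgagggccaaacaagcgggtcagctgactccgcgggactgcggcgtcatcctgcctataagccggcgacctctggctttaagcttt
Ccl6 chr11:83593088-83593337 (minus strand): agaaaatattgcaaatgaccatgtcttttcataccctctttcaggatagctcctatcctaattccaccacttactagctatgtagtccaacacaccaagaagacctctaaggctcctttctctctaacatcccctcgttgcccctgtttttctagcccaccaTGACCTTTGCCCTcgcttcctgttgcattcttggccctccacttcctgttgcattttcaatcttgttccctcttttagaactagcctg
Cxcl3 chr5:90785851-90786100 (plus strand): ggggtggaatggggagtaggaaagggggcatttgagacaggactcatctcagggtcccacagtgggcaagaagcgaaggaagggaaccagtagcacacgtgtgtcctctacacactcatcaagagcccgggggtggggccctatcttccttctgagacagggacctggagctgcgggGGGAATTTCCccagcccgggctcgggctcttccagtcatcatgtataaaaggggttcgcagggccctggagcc
Ppbp chr5:90768268-90768517 (plus strand): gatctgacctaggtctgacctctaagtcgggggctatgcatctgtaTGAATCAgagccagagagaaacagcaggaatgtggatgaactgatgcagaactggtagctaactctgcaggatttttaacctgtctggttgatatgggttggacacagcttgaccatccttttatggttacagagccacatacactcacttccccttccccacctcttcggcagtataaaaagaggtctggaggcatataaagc

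Of the 40 genes past 1.5-fold, 24 had a promoter entry, 19 higher and 5 lower ones. C/EBP letters were in 6 of the 19 higher genes' windows (Acot1, Cd300a, Fcgr3, Ngp, Selenbp1 and Spp1), against 9.56% of all 32851 windows of this length. AP-1 letters were in 4 (AA467197, Ccl9, Hilpda and Ppbp; 6.75% of all windows), the E-box in 3 (AA467197, Ctsd and Cxcl3; 6.02%), NF-kB in Cxcl3 (0.98%) and DR1 in Ccl6 (0.338%). TATAAA was in 5 (12.4%), namely Ccl9, Cxcl3, Ppbp, Selenbp1 and Spp1. Of the 5 lower genes, Yae1d1 had C/EBP letters, Snhg9 and Yae1d1 the E-box, and Ifitm6 and Snhg9 TATAAA. None of the 5 had AP-1, NF-kB or DR1 letters. Matches are counted by gene for these genes and by window for all windows. Matches that overlap a match of another motif were counted under both. The window of Plin2 held none of the 6. A match is a run of letters and not a measured binding site.

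The chemokine genes Ccl7 and Ccl2, which attract monocytes, had the largest ratios. They had 24.4 and 118 CPM in benzarone cells, against 0.03 and 5.94 CPM in DMSO cells. For Ccl2 these are 4422 UMIs in benzarone and 229 in DMSO, a ratio of 19.9 (interval 17.4 to 22.8). Ccl7 had 914 UMIs in benzarone and 1 in DMSO, so its ratio of 941 has an interval of 168 to 37213. Ppbp, the precursor of platelet chemokines, had 126 CPM in benzarone and 28.9 CPM in DMSO (4.36-fold, 4.09 to 4.66), and Cxcl3, which attracts neutrophils, had 57.2 and 20.3 CPM (2.81-fold, 2.59 to 3.06). Ccl6 and Ccl9, chemokines of mouse myeloid cells, had 409 and 320 CPM in benzarone, against 137 and 181 CPM in DMSO (2.99-fold and 1.77-fold). Ccl4, an attractant of monocytes and lymphocytes, was 2.12-fold higher at 78.3 CPM in benzarone and 37.0 CPM in DMSO. Of the 20 chemokines and cytokines on the list, 12 were listed and 8 reached 20 CPM. Of these 4 were past 1.5-fold higher (Ccl2, Ccl6, Ccl4 and Ccl9) and none lower, with a median log2 ratio of 0.52 against 0.03 over all genes tested. Over all 12 listed members the median was 0.20, against -0.00 over all 9448 listed genes. Ccl7, Cxcl3 and Ppbp stand outside that count.

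Most of the Ccl2 RNA came from a handful of cells. The 8 benzarone cells richest in Ccl2 had 926, 762, 636, 513, 436, 365, 307 and 275 UMIs of it and held 95.4% of all Ccl2 UMIs of the condition. The next cells had 63, 34, 15 and 13 UMIs, and the 4 richest DMSO cells had 80, 66, 31 and 13. At least 10 Ccl2 UMIs were found in 12 benzarone cells and 4 DMSO cells. All 7 benzarone cells with at least 10 Ccl7 UMIs were among those 12. Without the 10 richest cells of each condition Ccl2 stood at 2.84 CPM in benzarone and 0.24 CPM in DMSO, a log2 ratio of 3.59 at a far lower level. That cut took out all 4 of those DMSO cells but not all 12 benzarone cells, so the ratio left is in part built in. After every cell was thinned to 20000 UMIs (819 and 877 cells were deep enough), at least 1 Ccl2 UMI was left in 4.76% of benzarone cells and 1.48% of DMSO cells. Before thinning, in cells with little Lyz2, 8.24% of 765 benzarone cells and 1.10% of 819 DMSO cells had a Ccl2 UMI, at median depths of 45084 and 42708 UMIs. Free RNA in droplets can give such single UMIs, and its part was not tested.

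Arg1, AA467197 and Lpl, genes also found in macrophages, were likewise carried by a minority of cells. Arg1, the arginase that turns arginine into ornithine, had 50.3 CPM in benzarone and 11.6 CPM in DMSO (4.34-fold, 3.91 to 4.82), and AA467197, which codes for a small mitochondrial protein, had 66.5 and 12.6 CPM (5.28-fold, 4.79 to 5.83). At least 10 UMIs were found in 17 benzarone and 7 DMSO cells for Arg1, in 44 and 14 for AA467197, in 22 and 9 for Ppbp and in 30 and 6 for Cxcl3. Without the 10 richest cells of each condition the levels fell to 5.69 CPM in benzarone and 0.44 CPM in DMSO for Arg1, 21.6 and 0.97 CPM for Ppbp, and 20.7 and 0.89 CPM for Cxcl3. For these genes the cut took out every DMSO cell with at least 10 UMIs but not every such benzarone cell. The difference left is therefore in part built in. Lpl, the lipase that frees fatty acids from lipoproteins, was 2.34-fold higher (53.5 CPM in benzarone and 22.8 CPM in DMSO) and had no UMI in 83.9% of benzarone and 90.3% of DMSO cells. Spp1, osteopontin, was detected more widely, in 75.4% of benzarone and 67.4% of DMSO cells with little Lyz2. It had 239 and 158 CPM (1.51-fold), and 1.27-fold remained without its 10 richest cells in each condition. The monocyte and macrophage identity list had 10 of its 29 genes at 20 CPM, of which Arg1 and Fcgr3 were past 1.5-fold and none was lower. Its median log2 ratio was 0.38 and 9 of 10 were above 0. Itgam, an integrin of myeloid cells, had 25.3 and 17.96 CPM (1.41-fold, 1.28 to 1.56), and the protease Ctss 25.2 and 18.6 CPM (1.36-fold).

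Plin2 and Acot1 behaved in another way, since their difference ran through many cells. Plin2, the coat protein of lipid droplets, had 222 CPM in benzarone and 79.5 CPM in DMSO (2.80-fold, 2.68 to 2.92). Its median cell stood at 121.8 CPM in benzarone and 51.1 CPM in DMSO, 84.6% of benzarone cells lay above the DMSO median, and 2.54% of benzarone and 15.1% of DMSO cells had no UMI. Leaving out the 10 richest cells of each condition left a ratio of 2.85. Acot1, a thioesterase that frees fatty acids from coenzyme A, was 2.11-fold higher (31.5 CPM in benzarone and 15.0 CPM in DMSO, 1.91 to 2.33) and was detected in 61.5% of benzarone and 38.8% of DMSO cells. Abcd2, a peroxisomal transporter of very long-chain fatty acids, had 39.5 and 24.2 CPM, and Phyh, the peroxisomal hydroxylase of phytanic acid, 22.5 and 13.8 CPM (1.63-fold each). The median cell held 22.8 CPM of Abcd2 and 17.9 CPM of Phyh in benzarone, and 0 CPM of either in DMSO. Hilpda, an inhibitor of lipolysis at the lipid droplet, had 38.4 CPM in benzarone and 24.3 CPM in DMSO (1.58-fold).

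The list of PPAR targets and fatty acid oxidation genes had 11 of its 27 members at 20 CPM. Plin2 and Acot1 were past 1.5-fold higher, none was lower, 9 of 11 were above 0 and the median log2 ratio was 0.23. Angptl4, a secreted inhibitor of lipoprotein lipase, had 32.3 CPM in benzarone and 24.6 CPM in DMSO (1.31-fold, 1.20 to 1.43), and Acadm, the medium-chain acyl-CoA dehydrogenase of mitochondria, 49.4 and 37.8 CPM (1.31-fold, 1.22 to 1.40). Summed over the list, the median cell stood at 1171 CPM in benzarone and 985 CPM in DMSO, and 74.6% of benzarone cells lay above the DMSO median. Fatty acid synthesis genes (11 tested, none past 1.5-fold, median -0.04) and cholesterol synthesis genes (23 tested, none past 1.5-fold, median -0.01) stayed near the median of all genes. Fasn, the fatty acid synthase, had 70.5 and 81.8 CPM, and Hmgcs1, an early enzyme of the mevalonate pathway, 63.8 and 74.7 CPM. Acot1 and Chil3 have close relatives in the mouse genome, and how reads shared with them were counted is not given in the sources used here, so their levels are less certain.

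Lysosomal and cell surface genes were shifted over many cells as well. Ctsd, the acid protease cathepsin D, had 334 CPM in benzarone and 214 CPM in DMSO (1.56-fold, 1.52 to 1.61), with median cells at 208.6 and 146.5 CPM and 71.8% of benzarone cells above the DMSO median. Scarb2, a lysosomal membrane receptor, had 35.6 CPM in benzarone and 23.3 CPM in DMSO (1.53-fold). Fcgr3, an activating receptor for IgG, had 146 CPM in benzarone and 95.03 CPM in DMSO (1.54-fold), and its median cell 77.6 and 46.4 CPM. Ccl9 was higher in the median cell too, at 171.7 CPM in benzarone and 115.9 CPM in DMSO. Cells with Lyz2 above 2000 CPM, described further on, held 32.2% of its UMIs in benzarone and 16.2% in DMSO, and it was 3.44-fold higher in them and 1.43-fold in the others. Of 23 lysosome genes at 20 CPM, 2 were past 1.5-fold higher (Ctsd among them, while Scarb2 is not on the list) and none lower, 22 were above 0 and the median log2 ratio was 0.15. The protease gene Ctsl (1.44-fold) and Psap, the precursor of lipid-binding saposins (1.40-fold), came next, and 72.8% of benzarone cells lay above the DMSO median of the list's summed level.

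**Figure D2:**
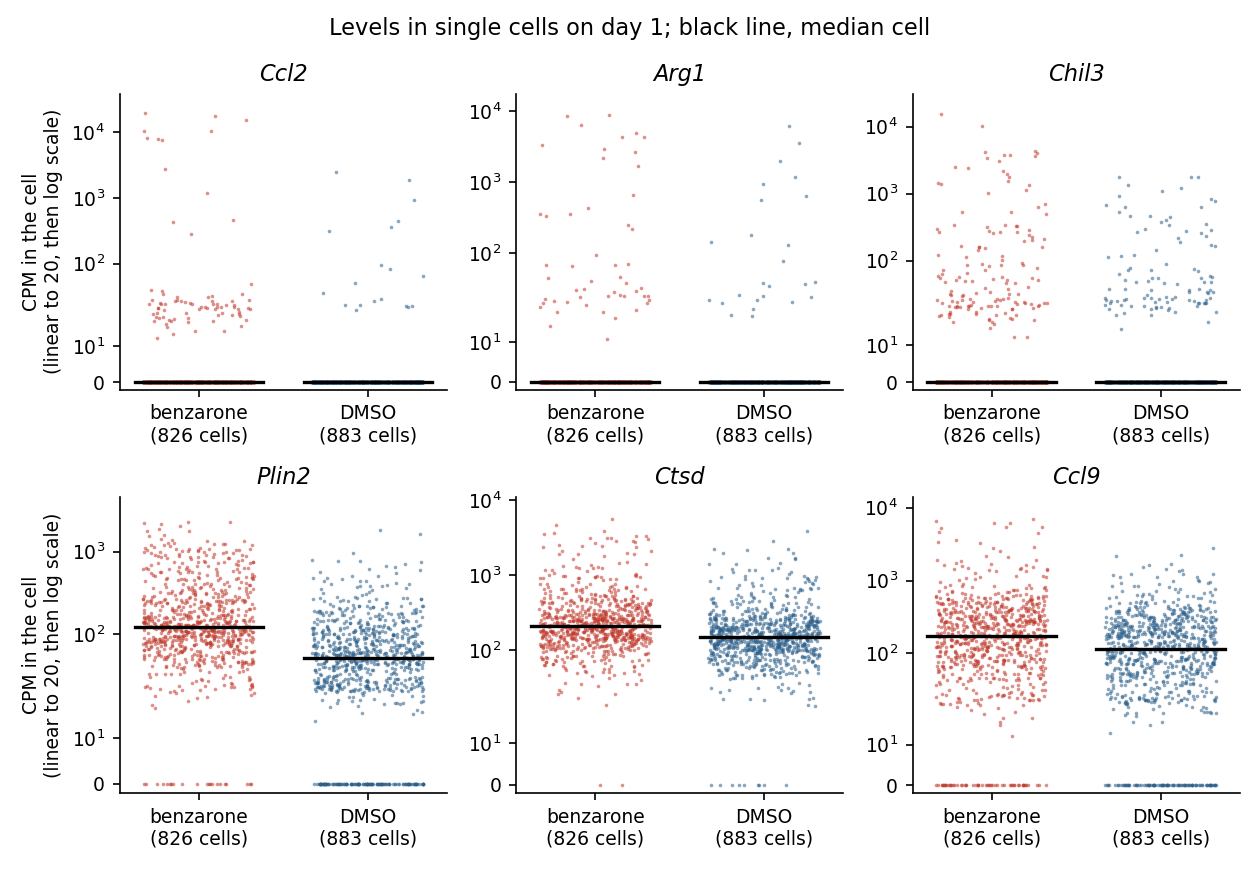
Each point is 1 cell, 826 in benzarone on the left of each panel and 883 in DMSO on the right, with the gene's CPM in that cell on the y axis (linear to 20, then a log scale) and the median cell as a black line. For Ccl2 and Arg1 the cells above 0 are few and the highest are benzarone cells, while for Plin2, Ctsd and Ccl9 the median itself is higher in benzarone.

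Among the other higher genes, Ehd1 (1.64-fold, endocytic recycling), Fam20c (1.63-fold, a kinase of secreted proteins), Selenbp1 (1.57-fold, a selenium-binding enzyme), Cd9 (1.52-fold, a tetraspanin), Tubb6 (1.51-fold, a beta-tubulin) and Cd300a (log2 ratio 0.59, an inhibitory receptor of myeloid cells) had 22.7 to 106 CPM in benzarone and 13.9 to 67.2 CPM in DMSO. The median cell was higher in benzarone for Ehd1 (41.1 CPM, against 24.7 CPM in DMSO), Tubb6 (76.1 and 54.9 CPM) and Selenbp1 (34.8 and 23.7 CPM). The gene model 1810011H11Rik was 1.53-fold higher.

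Chil3 and Ngp, neutrophil granule genes, were higher while most of their class was not. Chil3, a secreted chitinase-like lectin, had 91.1 CPM in benzarone and 24.8 CPM in DMSO (3.67-fold, 3.42 to 3.95), and Ngp, the neutrophilic granule protein, 48.2 and 13.7 CPM (3.53-fold, 3.20 to 3.90). At least 10 UMIs of Chil3 were found in 41 benzarone and 27 DMSO cells, and of Ngp in 9 and 4 cells. All 9 of those Ngp cells in benzarone had S100a8 above 10000 CPM, as did 26 of the 41 Chil3 cells, and 6 of the 9 were also Chil3 cells. Mpo was above 1000 CPM in 19 of the 41 Chil3 cells and 3 of the 9 Ngp cells. In DMSO all 4 Ngp cells and 17 of the 27 Chil3 cells had S100a8 above 10000 CPM. Mpo was above 1000 CPM in 2 and 13 of them. Ngp rested on few cells, since 6 benzarone cells held 90% of its UMIs. Without the 10 richest cells of each condition it stood at 1.59 CPM in benzarone and 0.50 CPM in DMSO. Of 15 secondary granule and late neutrophil genes at 20 CPM, these 2 were past 1.5-fold higher, Ifitm6 was lower and the median log2 ratio was 0.07. S100a8 and S100a9, the calprotectin subunits, had 3642 and 2610 CPM in benzarone, against 3988 and 2831 CPM in DMSO (0.91-fold and 0.92-fold). In the thinned cells S100a9 was detected in 70.7% of benzarone cells and 80.5% of DMSO cells.

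Primary granule genes differed little. None of 15 was past 1.5-fold, and the median log2 ratio was 0.06. Ctsg, cathepsin G, had 3767 CPM in benzarone and 2993 CPM in DMSO (1.26-fold), with median cells at 3431 and 2548 CPM. Mpo, myeloperoxidase, had 1826 and 1682 CPM (1.09-fold), Elane, neutrophil elastase, 487 and 496 CPM (0.98-fold), and Prtn3, proteinase 3, 3568 and 3405 CPM (1.05-fold). The proteoglycan Srgn, which packs granule proteins, had 968 and 784 CPM (1.24-fold).

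Eya3 and most named genes of the transforming programme stood near the median of all genes after 1 day. Eya3, an EYA family member, had 11.7 CPM in benzarone and 11.6 CPM in DMSO, and Six4 5.91 and 7.32 CPM. Eya1, Eya2, Eya4, Six5 and Dach1 are not among the listed genes. Hoxa9 had 206 CPM in benzarone and 199 CPM in DMSO (1.04-fold), Hoxa10 70.3 and 67.3 CPM, and Meis1 31.7 and 31.3 CPM. Myc, the growth regulator, had 69.8 and 64.5 CPM (1.08-fold, 1.03 to 1.14), and Mki67, a marker of cycling cells, 92.3 and 94.1 CPM. The receptor gene Kit had 5.82 and 6.62 CPM, and Cd34 11.1 and 14.0 CPM (0.80-fold, 0.70 to 0.91). Cebpe and Gfi1, regulators of granulocyte maturation, had 37.7 and 41.1 CPM in benzarone, against 33.4 and 40.1 CPM in DMSO. Irf8, a regulator of monocyte fate, had 28.5 and 24.5 CPM (1.16-fold, 1.07 to 1.27).

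Several lists were displaced by small amounts without a gene past 1.5-fold. All 26 proteasome genes were above 0, with a median log2 ratio of 0.14, and 72.9% of benzarone cells lay above the DMSO median of their summed level. Psmd12, a subunit of the regulatory lid, led them at 134 CPM in benzarone and 103 CPM in DMSO (1.29-fold). Of 22 NRF2 and glutathione genes 19 were above 0 (median 0.14), led by the glutathione transferase Mgst1 (1.33-fold) and the reductase Gsr (499 and 389 CPM, 1.28-fold), and 77.0% of benzarone cells lay above the DMSO median. Of 8 p53 targets 7 were above 0 (median 0.20). Cdkn1a, the cell cycle inhibitor p21, had 190 and 157 CPM (1.21-fold), with median cells at 121.1 CPM in benzarone and 81.9 CPM in DMSO. Of 29 mitosis genes 26 were above 0 (median 0.14), while 32 DNA replication genes had a median of 0.01.

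Ribosomal protein and mitochondrially encoded genes went the other way. All 12 mitochondrially encoded respiratory chain genes at 20 CPM were below 0, with a median log2 ratio of -0.13, and 20 of 78 cytosolic ribosomal protein genes were above 0 (median -0.06). Among all tested genes 2736 of 4699 were above 0. The lowest ribosomal protein gene was Rps29 (2468 CPM in benzarone and 3148 CPM in DMSO, 0.78-fold) and the lowest mitochondrial gene mt-Nd4l (33.3 and 44.0 CPM, 0.76-fold). The median cell had 28.3% of its UMIs from ribosomal protein genes in benzarone and 29.5% in DMSO. Scaling without both classes shifted the median log2 ratio of all genes to -0.00. Under it 36 list medians stayed within their intervals and 3 moved, and the medians were 0.10 for the proteasome, 0.12 for the lysosome and 0.48 for the chemokine and cytokine list.

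**Figure D3:**
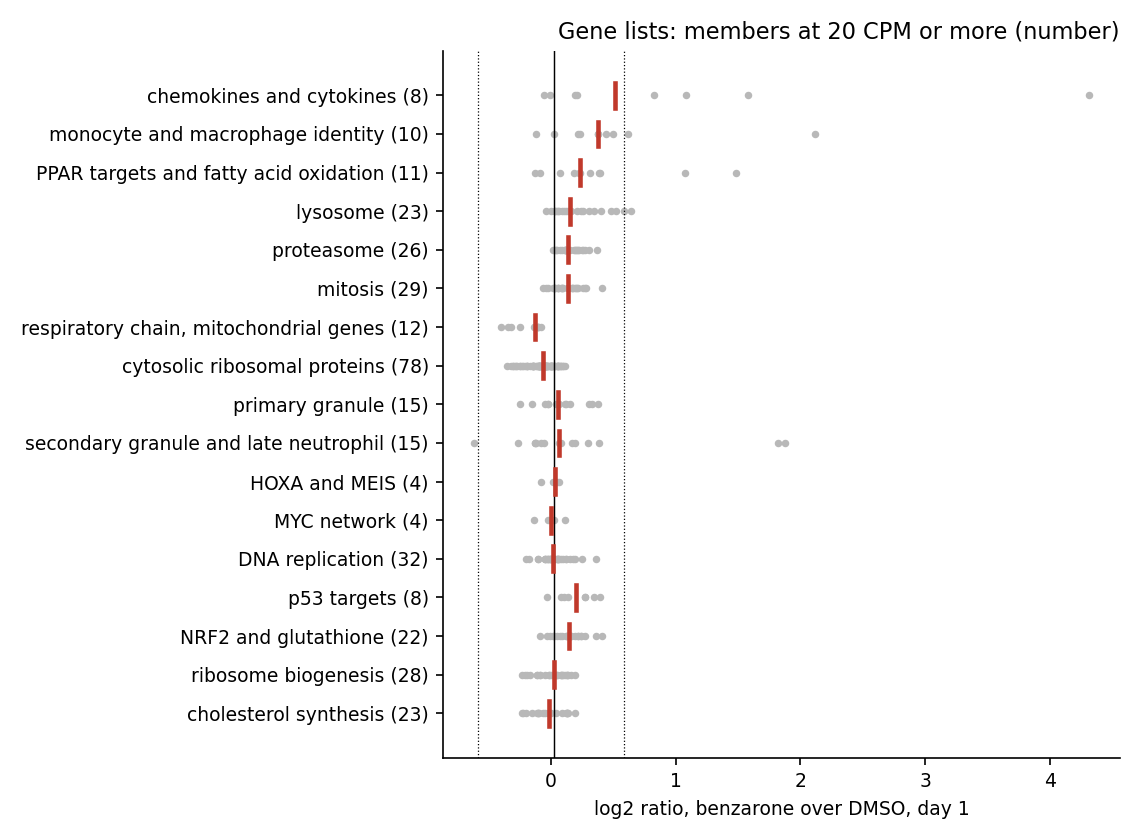
Grey points are the log2 ratios, benzarone over DMSO, of the members of each list at 20 CPM or more (their number in brackets), red bars are list medians, the solid line is the median of all 4699 genes at 0.03 and dotted lines are 1.5-fold. Of the lists drawn, chemokines and cytokines have the highest median at 0.52, all 26 proteasome genes lie above 0 and all 12 mitochondrially encoded genes lie below 0.

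The 11 lower genes had ratios from 0.59 to 0.67 and shared no list. AC160336.1, a gene model without a function named here, was the most abundant of them, with 289 CPM in benzarone and 435 CPM in DMSO, and its median cell had 218 and 346 CPM. Dennd5b, an activator of Rab GTPases, had 23.5 and 39.7 CPM (0.59-fold), the linker histone gene Hist1h1a 15.4 and 25.9 CPM, and Snhg9, a host gene of a small nucleolar RNA, 38.6 and 61.1 CPM (0.63-fold). Id2, an inhibitor of helix-loop-helix factors, had 25.9 and 39.3 CPM, the interferon-induced membrane protein gene Ifitm6 65.4 and 100 CPM, and the kinase gene Rps6ka3 22.5 and 34.5 CPM. Yae1d1 was 0.65-fold. Gm42418 (106 and 167 CPM) and Gm26917 (38.3 and 63.9 CPM) are gene models near ribosomal RNA sequence, as is AY036118 (7.05 and 13.0 CPM), which was under the level filter.

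The same cells tended to hold several of the sparse genes at once. Counted here were 8 genes found in a minority of cells (Ccl2, Arg1, Ppbp, Cxcl3, Lpl, Chil3, Ccl4 and AA467197). They were picked from the genes higher in benzarone, so more detection in benzarone is in part built in. At least 4 were detected together in 42 of 819 thinned benzarone cells (5.13%) and in 13 of 877 thinned DMSO cells (1.48%). The rate to be had from each gene's own detection was not computed. At least 1 of the 8 genes was detected in 49.3% of benzarone and 30.3% of DMSO cells. Of the 12 benzarone cells with at least 10 Ccl2 UMIs, 12 had as many of AA467197, 10 of Cxcl3, 9 of Arg1 and 9 of Ppbp. Chil3 reached that number in 2 of the 12 and Ngp in 0. Ranked by the other genes higher at 50 CPM or more, the top 5% of benzarone cells (42 cells) held 98.5% of the Ccl2 UMIs, 94.2% of Arg1 and 93.6% of Ppbp, but 2.199% of Chil3 and 16.5% of Plin2. The shares were similar in DMSO. There the top 45 cells held 96.9% of Ccl2, 98.0% of Arg1 and 96.9% of Ppbp, but 2.62% of Chil3 and 20.7% of Plin2. With all such genes ranked together, the top 42 benzarone cells had 9155 CPM of the lysozyme gene Lyz2 and 126 CPM of Mpo, against 552 and 1904 CPM in the other 784. In DMSO the top 45 cells had 6196 CPM of Lyz2 and 82.0 CPM of Mpo, against 616 and 1754 CPM in the other 838. The median depth of the top benzarone cells was 36697.5 UMIs, below the 45158.5 of the rest, as in DMSO (34712 and 42803.5).

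Cells were therefore also read by Lyz2, a gene of monocytes, macrophages and neutrophils, at a line of 2000 CPM that was drawn after the values were seen. Above it were 61 of 826 benzarone cells (7.38%, exact binomial interval 5.70 to 9.39) and 64 of 883 DMSO cells (7.25%, 5.63 to 9.16), with 29 and 27 cells within 1.5-fold of the line, so it marks a range and not a cell type. Lyz2 itself had 927 and 857 CPM over all cells (1.08-fold). In the Lyz2-high cells Ccl2 had 1472 CPM in benzarone and 46.9 CPM in DMSO (31.4-fold, counting interval 26.3 to 37.7), Ccl6 3825 and 1042 CPM (3.67-fold), Ppbp 1314 and 255 CPM (5.15-fold) and Arg1 553 and 151 CPM (3.66-fold). Spp1, Hilpda and Tubb6, which were close to 1.5-fold over all cells, were 2.60-fold, 3.14-fold and 2.91-fold higher there. Ccl2 was detected in 27.9% of the Lyz2-high cells in benzarone and 15.6% in DMSO. A few of these cells held most of it. At least 10 Ccl2 UMIs were in 10 of the Lyz2-high benzarone cells and 3 of the Lyz2-high DMSO cells. The richest benzarone cells had 926, 762, 636 and 513 of the 4020 Ccl2 UMIs of this class. These intervals cover counting error within 1 library a condition and do not compare the conditions. The counting intervals of ratios also leave out the spread between cells. Csf1r, the macrophage growth factor receptor, had 31.5 and 31.6 CPM in these cells, and S100a8 12009 and 13742 CPM.

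In the remaining 765 benzarone and 819 DMSO cells the lipid genes differed from each other. There Plin2 had 194 CPM in benzarone and 67.9 CPM in DMSO (2.86-fold), beside 578 and 231 CPM in Lyz2-high cells (2.50-fold). Hilpda and Lpl were 1.34-fold and 1.78-fold higher in benzarone in these cells, against 3.14-fold and 3.37-fold in Lyz2-high cells. Acot1 had 30.7 and 14.4 CPM (2.14-fold, and 1.87-fold in Lyz2-high cells), Ccl6 140 and 67.4 CPM (2.08-fold) and Chil3 82.9 and 24.4 CPM (3.40-fold). Ccl2 stood at 11.6 and 2.79 CPM, Cxcl3 at 20.6 and 2.24 CPM and Arg1 at 10.7 and 0.87 CPM. Spp1 was 1.12-fold higher. A few cells held most of the Ccl2 and Arg1 RNA of this class. Benzarone cells with Lyz2 at 1669 and 1237 CPM held 275 and 63 of the 402 Ccl2 UMIs, and 284 and 38 of the 372 Arg1 UMIs, while a DMSO cell with Lyz2 at 999 CPM held 80 of the 100 Ccl2 UMIs.

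**Figure D4:**
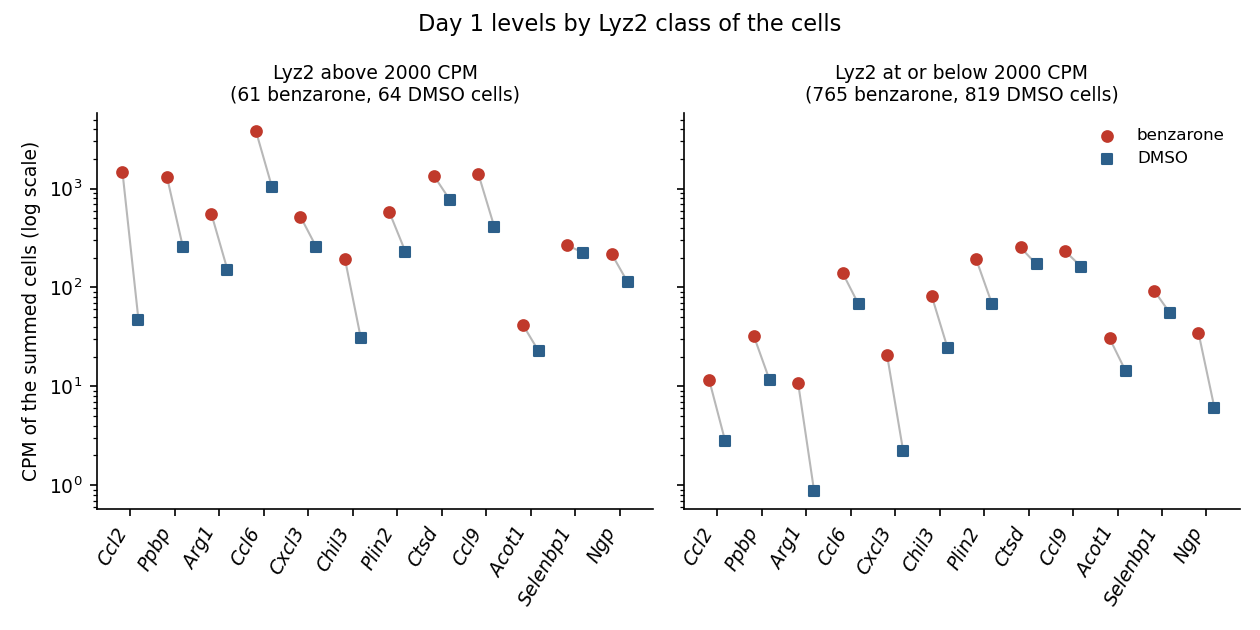
Levels of 12 genes as CPM of the summed cells (log scale) on day 1, benzarone as red circles and DMSO as blue squares, in cells with Lyz2 above 2000 CPM (left, 61 benzarone and 64 DMSO cells) and in the other cells (right, 765 and 819 cells). Ccl2 is at 1472 and 46.9 CPM on the left, and Plin2 is higher in benzarone in both panels.

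Across single cells, Plin2, Ctsd and Fcgr3 went together in both conditions. Spearman's rho was 0.57 in benzarone (826 cells) and 0.45 in DMSO (883 cells) for Plin2 with Ctsd, and 0.61 and 0.53 for Ctsd with Fcgr3. Cxcl3 with AA467197 had 0.48 in benzarone and 0.21 in DMSO, and the progenitor pair Mpo and Elane 0.64 and 0.64. Lpl and Mpo ran against each other (-0.42 and -0.38). Cells of a condition share a library, and CPM in a cell depends on that cell's depth, so these values only describe.

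Later samples of the series give the level of the same genes after more time in benzarone. On day 3, for which only benzarone cells were analysed here, Ccl2 had 460 CPM, Ccl7 148, Arg1 340, Ppbp 1345 and Plin2 472 CPM in 829 benzarone cells, each above its day 1 level in benzarone. Chil3 had 124 CPM and Ngp 47.7 CPM on day 3, beside 91.1 and 48.2 CPM on day 1. Lyz2 was above 2000 CPM in 193 day 3 cells (23.3%, 20.4 to 26.3). On day 5 Ccl2 had 2311 CPM in 1496 benzarone cells and 61.5 CPM in 1662 DMSO cells, Arg1 1276 and 21.2 CPM, Plin2 1193 and 97.6 CPM, Ctsd 3637 and 291 CPM and Acot1 61.0 and 10.7 CPM. Day 5 is 1 sample with cells of both conditions, in a table of its own with 11662 genes, and its median cell has 19763 UMIs in benzarone and 24575.5 in DMSO, so levels across tables are set side by side without a test.

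By day 5 the comparison of benzarone with DMSO was wide. At 20 CPM or more 1150 of 5033 genes were at least 1.5-fold higher (22.8%) and 1634 at least 1.5-fold lower (32.5%). Of the 29 genes higher on day 1, 28 were past 1.5-fold higher on day 5, which is 96.6% of the day 1 list and 2.43% of the day 5 list. Selenbp1 was the exception, with 21.6 CPM in benzarone and 53.6 CPM in DMSO on day 5. Of the 11 genes lower on day 1, 7 were tested on day 5. Snhg9 and Dennd5b were lower again, Id2 (130 and 47.0 CPM) and Gm26917 (170 and 94.8 CPM) were higher, and the other 3 were not past 1.5-fold.

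Bulk RNA of 2 other mouse lines, given benzarone at the same dose for 72 h, offers replicated samples that the day 1 cells lack, though oncogene, time and assay all differ. The lines came from c-Kit+ marrow cells transduced with EYA1 and HOXA9 (sorted on GFP and dTomato) or with HOXA9, and each had 3 libraries in 5 µM benzarone and 3 in DMSO, with 26340437 to 34605973 estimated counts a library. Nothing in the labels says that the 3 came from separate cultures, so p-values measure the spread between these samples, which may be technical. In bulk samples fewer cells of a type and less RNA per cell cannot be told apart. Levels are CPM scaled by TMM factors, and genes were called at an adjusted p under 0.05 in edgeR's quasi-likelihood test.

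In the EYA1+HOXA9 line the lysosomal and surface genes that were higher in single cells on day 1 rose, and the fatty acid genes Acot1 and Abcd2 fell. Ctsd had 2958, 2690 and 1991 CPM in benzarone and 1669, 1206 and 1019 CPM in DMSO, groups that do not overlap (log2 difference 0.97, SE 0.19, edgeR adjusted p = 0.00308). Ccl9 had 1567, 1714 and 1541 CPM in benzarone and 988, 841 and 684 CPM in DMSO, also without overlap (0.94, SE 0.25, edgeR adjusted p = 0.0148), a call that was lost without DMSO replicate 3. Acot1 had 7.57, 7.70 and 2.33 CPM in benzarone, all below the 27.5, 10.2 and 14.5 CPM in DMSO (-1.56, SE 0.42, edgeR adjusted p = 0.0143), a call that was lost without DMSO replicate 1. Abcd2 had 137, 138 and 117 CPM in benzarone and 170, 181 and 202 CPM in DMSO (-0.50, SE 0.11, edgeR adjusted p = 0.00611). Ccl2 had 3.08, 5.62 and 1.68 CPM in benzarone and 3.63, 2.45 and 4.29 CPM in DMSO, which overlap (0.01, SE 0.63, edgeR adjusted p = 0.994). Arg1 had 0.54, 1.79 and 1.79 CPM in benzarone and 7.06, 4.76 and 6.09 CPM in DMSO and did not pass (-2.13, edgeR adjusted p = 0.0965), although it was called lower when the 6 libraries of the line were fitted alone.

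Of the 29 genes higher on day 1, 28 were tested in the lines (all but Cxcl3). In the EYA1+HOXA9 line 12 of them were called higher (among them Fcgr3, AA467197, Scarb2, Cd9, Ctsd, Lpl, 1810011H11Rik, Ccl9, Cd300a, Tubb6 and Ehd1) and 2 lower, where edgeR called 17% of all 13375 genes higher and 12.4% lower, 29.4% in all. The 2 lower calls, Acot1 and Abcd2, were no larger a share than that of all genes. For the 28 genes the median log2 difference was 0.54, against 0.01 over all genes tested. AA467197 was at 0.21 CPM or less in every library of this line. The count of 12 was 6 without DMSO replicate 3 (among them Fcgr3, AA467197, Scarb2, Cd9 and Ctsd), and 9 when benzarone replicate 1 or 2 or DMSO replicate 2 was left out. With the 6 libraries of the line alone 9 were called higher and 5 lower (Selenbp1, Arg1, Ngp, Acot1 and Abcd2). Of the 11 lower genes 7 had a row in the line table, and of these Rps6ka3 and Id2 were called higher in EYA1+HOXA9 cells and none lower.

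In the HOXA9 line no gene passed the main edgeR test (0 of 13375, 0%), which left out the pairing by replicate number, and DESeq2 called 14. At an unadjusted p under 0.05 in the main edgeR test were 232 genes, 170 higher and 62 lower. Among the 35 day 1 genes tested, 10 were at that level. Plin2, Acot1 and Chil3, the day 1 genes that DESeq2 called, had all benzarone libraries above all DMSO libraries. They were picked by calls on these same libraries, so this separation is in part built in. How many of all genes are separated in this way was not counted. Plin2 had 571, 376 and 423 CPM in benzarone and 267, 180 and 217 CPM in DMSO (1.04, SE 0.25, edgeR adjusted p = 1). Acot1 had 40.4, 32.7 and 25.7 CPM in benzarone and 9.15, 10.7 and 9.16 CPM in DMSO (1.77, SE 0.41, edgeR adjusted p = 1), and Chil3 had 1219, 753 and 597 CPM in benzarone and 338, 367 and 227 CPM in DMSO (1.46, SE 0.30, edgeR adjusted p = 0.812). Same-numbered HOXA9 libraries deviated together, and with the replicate number as a block edgeR called 11 genes, all higher, among them Plin2 (adjusted p = 0.0426). DESeq2 called Chil3, Acot1 and Plin2 (adjusted p = 0.00235, 0.0157 and 0.0472). Over the 28 genes the median log2 difference was 0.41, against -0.00 over all genes, and 26 of 28 were above 0. The share of all tested genes above 0 in this line was not counted.

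The response of Acot1 and Abcd2 differed between the lines. The log2 difference in the EYA1+HOXA9 line minus that in the HOXA9 line was -3.33 for Acot1 and -0.92 for Abcd2 (edgeR interaction without the replicate block, adjusted p = 0.00751 and 0.00735), and 0.73 for Rps6ka3 (adjusted p = 0.0273). These 3 of the 35 day 1 genes tested are close to the share of all genes, 1009 of 13375 (7.54%), and do not set the day 1 genes apart. For Plin2 it was -0.72 (edgeR adjusted p = 0.248) and for Ctsd 0.59 (edgeR adjusted p = 0.223), neither past the threshold.

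**Figure D5:**
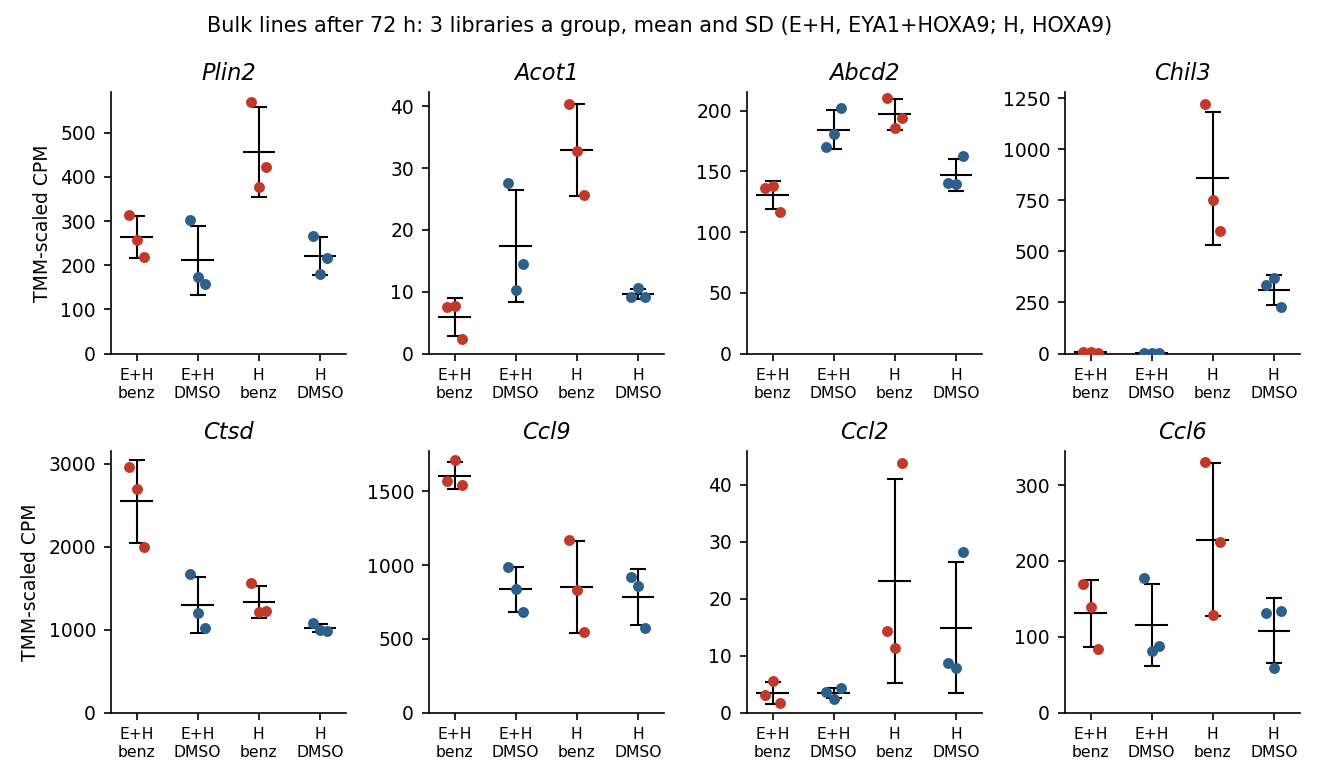
TMM-scaled CPM of 8 genes in the bulk lines after 72 h, with 1 point per library, the mean and the SD of 3 libraries, benzarone left of DMSO within each line. Ctsd and Ccl9 are higher in benzarone in EYA1+HOXA9 cells and Acot1 is lower there. Plin2, Acot1 and Chil3 have higher means in benzarone in HOXA9 cells, where the main edgeR fit called no gene.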

How the data were processed

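The authors deposited whole counts of UMIs per gene and cell for the single cells, not normalized, and estimated counts per gene for the bulk lines, which need not be whole. The submitters' processing notes name Cell Ranger 3.0.0 and Salmon 0.13.0. Filters on cells and genes are not given in the sources used here. The gene lists and members were chosen with earlier results of these data known.

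UMIs of all cells in a condition were added up and divided by the total over listed genes (CPM, Python 3.11.15). Genes at 20 CPM or more in the higher condition were compared and called at 1.5-fold, with exact Poisson intervals (95%). No cell was removed and no doublet caller was run. For shares of cells, each cell was thinned to 20000 UMIs. A count of 3 UMIs was 0.0802 CPM in benzarone and 0.0778 CPM in DMSO. Cell classes by Lyz2, and ratios without the richest cells, were added after the data were seen.

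Line counts were rounded, filtered with filterByExpr (13375 of 35429 genes), scaled by TMM and tested with edgeR 4.0.16 in R 4.3.3 over all 12 libraries, two-sided, with Benjamini-Hochberg adjustment at 0.05. DESeq2 1.42.0 and a fit with the replicate number as a block were alternatives. Deviations of same-numbered libraries correlated at 0.389, 0.464 and 0.793 in the HOXA9 line, so numbers were taken to pair its samples. Unlike-numbered libraries there ran from -0.646 to 0.308. The highest was benzarone 1 with DMSO 2, so the pairing is less clear for replicate 1. In the EYA1+HOXA9 line same-numbered libraries correlated at -0.0607, -0.0477 and 0.0183, and numbers were not taken to pair them. The scripts were tested on simulated data.

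Genes named are those of interest in any case (retinal determination, HOXA, granule, cell cycle and the fusion's own genes), the 15 largest ratios each way at 50 CPM, up to 4 members of each of 51 lists at 20 CPM, the 6 genes each way with the largest difference in detection, and the 6 most abundant. The others past 1.5-fold and the genes named from the cell classes were chosen after their values were seen. A few genes the rule names are not reported here.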

Additional observations from a re-analysis of the deposited data

Results flagged for a closer look

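For 3 genes the difference between benzarone and DMSO on day 1 had the opposite direction on day 5. The log2 ratio on day 5 was -1.31 for Selenbp1, higher in benzarone on day 1, and 1.47 for Id2 and 0.84 for Gm26917, both lower in benzarone on day 1. The difference between days was not tested, since each condition is 1 sample a day.

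For 3 of the 35 day 1 genes tested in the bulk lines, the effect of benzarone differed between the lines by the edgeR interaction. It called 7.54% of all genes, a similar share. The log2 difference in EYA1+HOXA9 cells minus that in HOXA9 cells was -3.33 for Acot1, -0.92 for Abcd2 and 0.73 for Rps6ka3. Acot1 and Abcd2 were higher in benzarone in the day 1 cells, and Rps6ka3 was lower there.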

How the results depend on the processing

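The day 1 count of 40 genes (29 higher, 11 lower) stayed within 1.5 times under both other scalings, equal weight per cell, thinning and leaving out the deepest or the granule-rich cells. It was 172 (84 higher, 88 lower) of 9447 genes without a level filter and 12 (9 and 3) of 1447 genes at 100 CPM. Of the 4699 genes of the main setting it was 13 (13 and 0) at a fold of 2, and 177 (116 and 61) at a smaller fold. Cells low in replication and mitosis RNA gave 65, of which 52 higher. Without ribosomal protein and mitochondrial genes 19 were lower. Without the 5% of cells highest in the genes concerned 17 were higher, 15 of them the same genes. Cells with Lyz2 above 2000 CPM gave 364 (263 and 101) of 4618 genes. There Yae1d1 was higher in benzarone (log2 ratio 1.92), on 64 UMIs in benzarone and 17 in DMSO. Hist1h1a had a log2 ratio of 0.75 there on 20 and 12 UMIs, and the counting interval of its ratio, 0.78 to 3.76, holds both directions. Thresholds and the numbers of cells and genes differ between these settings, and why the counts moved was not tested. Over all settings 2090 ratios of named genes stayed within their intervals, 560 moved and 2 reversed, and 429 list medians stayed and 61 moved. Depth and 1 sample a condition limit the low genes: intervals cover counting error only. No paired analysis was possible because each day 1 condition is 1 sample.

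In the EYA1+HOXA9 line leaving out each library gave 2353 to 3923 calls (1459 to 2229 higher, 894 to 1694 lower), lowest without DMSO replicate 3. With the replicate block it gave 4640 (2586 higher, 2054 lower), and of the genes higher on day 1 it called 15 higher and 5 lower, Arg1 among the 5. In the HOXA9 line the 0 calls became 14 with DESeq2 (11 higher, 3 lower), 11 with the replicate block (11 higher, 0 lower), 1 with the 6 libraries alone (1 lower) and 0 to 1 when a library was left out (0 to 1 higher, 0 lower in each). For log2 differences of named genes in the lines, 728 kept direction and side, 18 newly passed and 22 no longer passed.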

Other observations

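Amino acid supply and glucose genes showed a mixed picture on day 1. Of 17 ATF4 and amino acid supply genes at 20 CPM, 4 were above 0 and none was past 1.5-fold (median log2 ratio -0.07). The arginine transporter gene Slc7a1 had 26.6 CPM in benzarone and 35.7 CPM in DMSO (0.74-fold, counting interval 0.69 to 0.81), the leucine transporter gene Slc7a5 45.7 and 58.7 CPM (0.78-fold) and the stress gene Nupr1 38.7 and 49.6 CPM (0.78-fold). Of 24 glycolysis and hypoxia genes 19 were above 0 (median 0.10), and Ldha, lactate dehydrogenase, had 2222 and 1896 CPM (1.17-fold). Hk2, hexokinase, and Ankrd37, a hypoxia target, went the other way at 31.2 and 16.7 CPM in benzarone, against 43.7 and 24.0 CPM in DMSO.

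None of the 12 immediate early genes at 20 CPM was past 1.5-fold. Dusp6, a phosphatase of ERK induced by it, had 36.9 CPM in benzarone and 25.6 CPM in DMSO (1.44-fold, 1.33 to 1.57), while Egr1, another target of ERK, had 22.2 and 27.4 CPM (0.81-fold, 0.74 to 0.89). Ifngr1, a chain of the interferon gamma receptor, had 61.6 and 44.5 CPM (1.38-fold), Bcl2a1a, a survival gene of the BCL2 family with near-identical copies, 30.0 and 21.7 CPM (1.38-fold), and Alas1, the first enzyme of heme synthesis, 185 and 142 CPM (1.30-fold). Hsd17b1, a steroid dehydrogenase gene under the level filter, was detected in 14.4% of thinned benzarone cells and 26.1% of thinned DMSO cells (9.43 and 15.96 CPM).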
